A study of Mus musculus with 21 samples.

Results

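Ribosome biogenesis factors of the nucleolus were followed in the mouse melanoma line B16-F10 under low oxygen and under cobalt chloride (CoCl2), a salt widely used to stabilise hypoxia-inducible factors without lowering oxygen. The list held 40 genes, and 38 of them were measured among 8251 genes in all; Dkc1 and Nle1 were not named in the probe annotation used here. Members were taken by name: each is represented by the probe set annotated to it alone, and, where there were several, by the one with the highest mean over the 21 arrays. RNA was read on Affymetrix Murine Genome U74Av2 arrays, and all levels are on the log2 scale deposited by the authors, so a difference of 1 is a change by a factor of 2. Levels of different probe sets were compared only to choose among those of a gene, to say how dim one was and for marker means.

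B16-F10 is an established line from a C57BL/6J melanoma, so the groups stand for 1 tumour line in culture. Per the labels, cells were exposed to 1% oxygen for 24 h in a Billups-Rothenberg chamber (3 arrays) or in a flow-regulated incubator in experiment 1 (3 arrays) and experiment 2 (3 arrays), each beside 2 control arrays at 21% oxygen. In experiment 3, cells received CoCl2 at 100 µM (2 arrays) or 200 µM (2 arrays) for 24 h and were set against 2 control arrays at 21% oxygen. The labels do not give the time for the controls or the oxygen level of the CoCl2 cultures. Neither the chamber arrays nor 2 of the control arrays carry an experiment number in their titles, and on that basis these controls were taken as the chamber's own. Each set used 1 device, so chamber and set cannot be told apart. Arrays of a group are called biological replicates in the labels, which do not say whether each came from its own culture, and p-values here reflect array-to-array spread that may be technical.

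Ribosomes are made in the nucleolus. RNA polymerase I transcribes the ribosomal DNA into 1 long precursor RNA, box C/D and H/ACA small nucleolar ribonucleoproteins (snoRNPs) guide its methylation and pseudouridylation, and assembly factors cut and fold it into the small and the large ribosomal subunit. The PeBoW complex of Pes1, Bop1 and Wdr12 acts in large subunit maturation, and abundant proteins such as nucleolin (Ncl) and nucleophosmin (Npm1) organise the nucleolus. Ribosome production is among the costliest activities of a growing cell, is high in many tumours, and many of its genes are targets of the transcription factor MYC.

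The arrays as a whole were on 1 scale. Array medians over all probe sets lay between 5.44 and 5.53, and arrays of a group correlated between 0.980 and 0.998 over genes. Markers of the melanocyte lineage (8 of 10 measured) averaged 6.43 to 9.42 per array, and all 8 were called lower at both CoCl2 doses; markers of endothelial cells averaged 4.15 to 4.53, of epithelial cells 4.36 to 4.79, of fibroblasts 5.05 to 5.54 and of leukocytes 3.93 to 4.79. With CoCl2 the leukocyte mean was 4.61 and 4.50 at 100 µM and 4.75 and 4.79 at 200 µM, against 3.96 and 4.01 in the controls of experiment 3, and 3 and 2 of its 7 measured markers were called higher at the doses (2, 1 and 1 in the hypoxia sets). The macrophage marker Cd68, named after its values were seen, rose by 2.503 at 100 µM and 3.98 at 200 µM, and by 0.86, 0.95 and 0.72 in the chamber and experiments 1 and 2. Of 6 epithelial markers, 3 and 4 were called higher at the doses, of 8 fibroblast markers 1 and 3, and of 6 endothelial markers 1 and 0. Of all genes, 17.6% and 19.7% were called higher at 100 and 200 µM, and 20.7% and 22.3% lower. In the chamber and experiments 1 and 2, 7.96%, 7.57% and 7.55% of all genes were called higher. The part of these markers in the results was not tested. Without detection calls, it could not be said which probe sets were at background. RNA quality varied most in experiment 3. The 3′ minus 5′ difference of the Actb control probe sets, which grows with RNA breakage, ran from 0.15 to 0.50 in the 15 arrays of the hypoxia sets, was 1.41 and 1.62 in the controls of experiment 3, 2.36 and 2.16 at 100 µM, and 1.47 and 0.50 at 200 µM. The same difference for Gapdh ran from 0.07 to 0.52 in the hypoxia sets and was 2.21 and 0.92 in the controls of experiment 3, 1.44 and 2.18 at 100 µM and 0.45 and 0.12 at 200 µM. By Gapdh both 200 µM arrays, and by Actb the second of them, lay within the range of the hypoxia sets.

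Nucleolar factors were lower in most comparisons. In the chamber, 30 of the 38 members were called lower under hypoxia and 0 higher at an adjusted p under 0.05 (limma, Benjamini-Hochberg over all 8251 genes), against 15.1% of all genes called lower and 7.96% higher. Their median difference was -0.72, against 0.07 over all genes, and in 35 members every hypoxia array lay below every chamber control and in 0 above. Over all genes the same comparison gave 28.9% wholly below and 38.1% wholly above. In experiment 1, 17 members lay wholly below and 8 wholly above (26.1% and 19.3% of all genes), and in experiment 2, 29 and 2 (25.7% and 19.4%). With CoCl2 the counts were 34 and 0 at 100 µM (27% and 37.8%) and 24 and 1 at 200 µM (28.9% and 40.7%). In experiment 2, 19 members were lower and 0 higher (7.79% of all genes lower, 7.55% higher), with a median of -0.43 against -0.03. In experiment 1, 10 were lower (10.7% of all genes) and 3, Polr1c, Pes1 and Gnl3, were higher (7.57% of all genes), with a median of -0.15 against -0.03. In RNA from a whole culture, fewer cells of a kind and less RNA per cell cannot be told apart. Without the second control of experiment 1 its count was 5, and with the lowest-mean probe set of each gene in place of the highest the counts were 6 in experiment 1 and 12 in experiment 2. Over the mean of the 3 within-set differences, 26 members were lower and 0 higher (19.5% of all genes lower, 12.6% higher), with a median of -0.48 against 0.01.

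With CoCl2 the same direction held. At 100 µM, 31 members were lower and 0 higher (20.7% of all genes lower, 17.6% higher), with a median of -0.95 against 0.10 over all genes. At 200 µM, 21 were lower and 0 higher (22.3% of all genes lower, 19.7% higher), with a median of -0.50 against 0.11. Both doses share their 2 control arrays, and 19 members were lower at both, as were 16.4% of all genes. With the Actb 3′ minus 5′ difference as a covariate, the counts were 20 at 100 µM and 24 at 200 µM. The mean of the 38 members per array was 7.74 and 7.82 in the chamber controls and 7.04, 7.00 and 7.02 under chamber hypoxia. It was 7.49 and 7.58 in the controls of experiment 1 against 7.35, 7.47 and 7.37 under hypoxia, and 7.63 and 7.64 in experiment 2 against 7.21, 7.24 and 7.20. The CoCl2 set had means of 7.67 and 7.60 without the salt, 6.65 and 6.79 at 100 µM and 6.98 and 7.24 at 200 µM. In each set all treated arrays were therefore below their controls, by least in experiment 1.

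**Figure D1:**
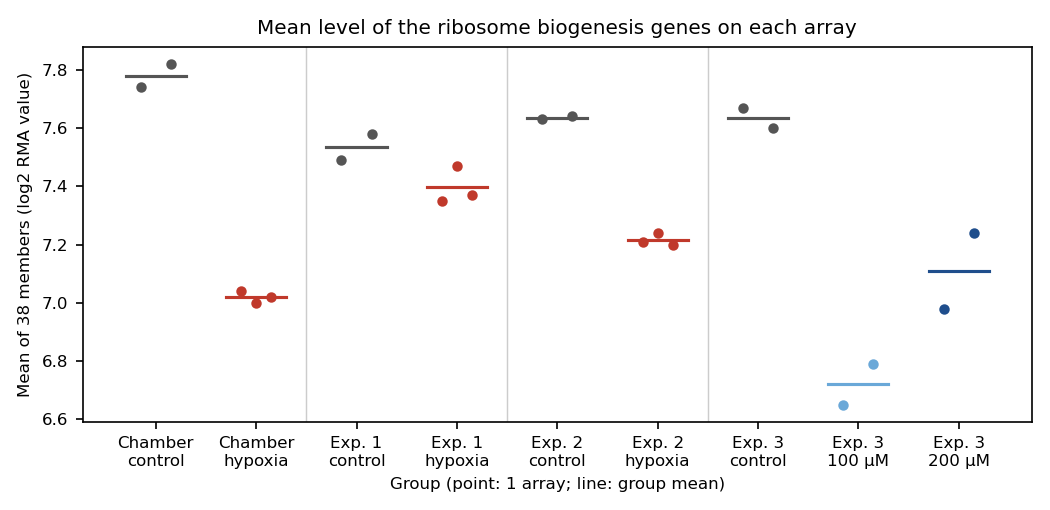
Mean of the 38 measured members by array: the x axis shows the 9 groups and the y axis the mean level in log2 units, with 1 point per array and a bar at the group mean. Chamber hypoxia lies at 7.00 to 7.04 against controls of 7.74 and 7.82, experiment 1 hypoxia at 7.35 to 7.47 against 7.49 and 7.58, and the 100 µM arrays are lowest at 6.65 and 6.79.

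The calls formed a few patterns. Nop56, Nhp2, Polr1a, Bysl, Rcl1, Tsr1, Bop1, Nop2 and Nolc1 were lower in all 3 hypoxia sets, as were 384 (4.65%) of all 8251 genes. Each of these 9 was also lower at both CoCl2 doses. How many of the 384 genes were lower at both doses too was not counted, so this overlap has no matching share beside it. Over all genes, whatever their hypoxia calls, 16.4% were lower at both doses. The 9 members cover snoRNPs, RNA polymerase I, both subunits' assembly and the nucleolar organisers. Another 10, namely Fbl, Rrp9, Nop10, Gar1, Tcof1, Imp4, Wdr43, Rrs1, Ncl and Ddx21, were called lower in the chamber and in experiment 2 but not in experiment 1, as were 1.85% of all genes. Among the 3 hypoxia sets, 11 more were called lower in the chamber only (6.51% of all genes): Nop58, Ubtf, Imp3, Pes1, Ftsj3, Ebna1bp2, Gnl3, Nip7, Ddx18, Ddx56 and Surf6. Of these 11, 8 were also lower at 100 µM and 4 at 200 µM, and Nip7 and Ddx56 at neither dose. The matching share of the genes called lower in the chamber only was not counted. Polr1b was called in experiment 1 only of these sets and at both CoCl2 doses, and Polr1c, Polr1d, Mphosph10, Emg1, Wdr12, Rrp1 and Npm1 were called lower in none of the 3 sets. A call in 1 set and none in another does not show that the sets differ; the differences between sets were tested directly and are given after the genes. Polr1d and Npm1 passed the threshold under no treatment.

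Some calls hung on 1 array. Leaving out each array in turn, 25 of the 30 chamber calls held throughout, and without the second chamber control those of Ubtf, Pes1, Nip7, Ddx18 and Surf6 were lost. In experiment 1, 5 of 13 held, those of Nop56, Nhp2, Tsr1, Bop1 and Nolc1. Without its second control, Polr1a, Polr1b, Polr1c, Bysl, Rcl1, Pes1, Nop2 and Gnl3 were lost. Polr1b, Polr1c, Pes1 and Gnl3 were also lost without its first control. In experiment 2, 14 of 19 held; Fbl and Polr1a were lost without the first control, Nop10 and Rrs1 without the second, and Imp4 without either. At 100 µM, 24 of 31 held, and without the first control of experiment 3 the calls of Polr1b, Polr1c, Mphosph10, Pes1, Rrp1, Ddx18 and Surf6 were lost. At 200 µM, 16 of 21 held. Polr1a, Ubtf and Imp3 were lost without the first array at that dose and Nop58 and Wdr12 without the second. Wdr12 was also lost without either control of experiment 3, and Ubtf without the first of them.

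**Figure D2:**
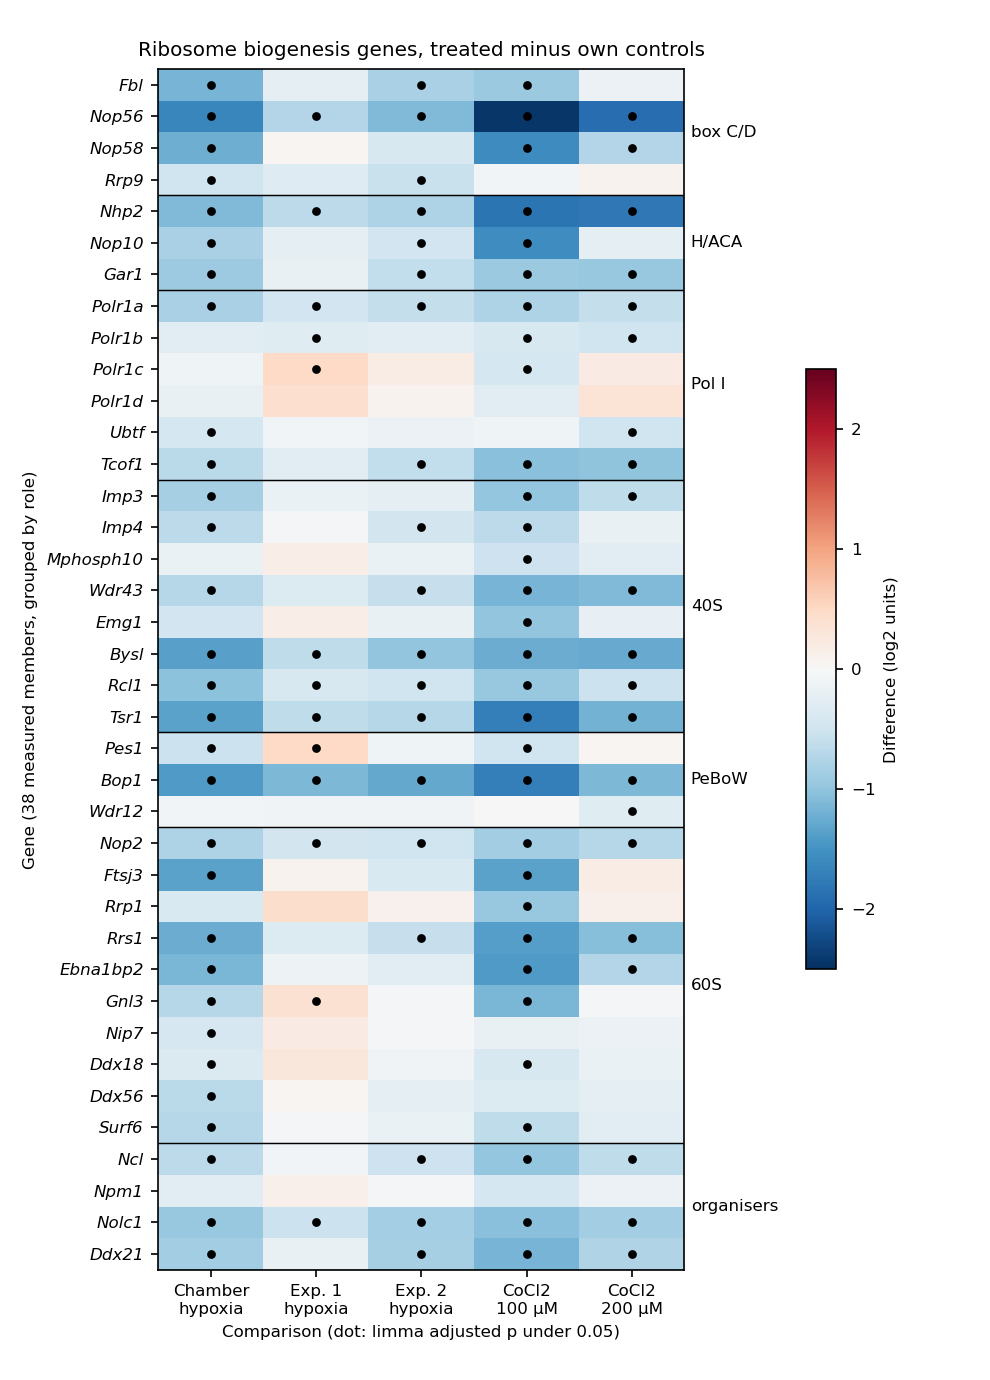
Differences of the 38 measured members from their own controls: rows are genes ordered by role, columns are the 5 treatments, and colour gives the log2 difference, with a mark where limma's adjusted p was under 0.05. Blue rows are lower under treatment. Nop56, Nhp2, Bysl and Bop1 are lower in all 5 columns. Polr1c, Pes1 and Gnl3 are called higher in experiment 1, as were 7.57% of all genes.

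Promoters of the measured members were searched for short motifs on both strands of the 250 bases before the start. These were CACGTG, the E-box that MYC and its partners bind, and ACGTG, the core of the hypoxia response element. GACGTG and TACGTG were searched as extended forms of that core. RefSeq promoters (GRCm38.p6) matched 33 of the 38 measured members; Fbl, Tcof1, Bop1, Rrs1 and Npm1 had no entry. CACGTG, which contains ACGTG, was found in 2 of 33 (6.06%, against 6.86% of 27025 genes), those of Imp4 and Nop2. GACGTG was found in 3 (9.09% against 5.87%), TACGTG in 0 (against 3.12%), and ACGTG in 7 (21.2% against 18.5%): Bysl, Ddx56, Ftsj3, Imp4, Nop2, Polr1c and Ubtf. These shares are descriptions, a match is not a bound site, and a missing match says only that the letters are not in the window.

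The 4 stretches that follow are from RefSeq on GRCm38.p6, 5′ to 3′ on the gene's strand, with the motif in capitals. Imp4 (chr1:34439696-34439725, plus strand) and Nop2 (chr6:125131633-125131882, plus strand) are shown for CACGTG; Polr1c (chr17:46248057-46248086, minus strand), the member with the highest mean hypoxia difference among those with a promoter, is shown for ACGTG, here within GACGTG; Nop56 (chr2:130274162-130274366, plus strand), with the lowest such difference among them, holds none of the motifs searched. Imp4 and Polr1c are cut to 30 bases because another gene overlaps the window, and Nop56 runs from 250 to 46 bases before the start.
Imp4: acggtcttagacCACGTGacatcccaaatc
Nop2: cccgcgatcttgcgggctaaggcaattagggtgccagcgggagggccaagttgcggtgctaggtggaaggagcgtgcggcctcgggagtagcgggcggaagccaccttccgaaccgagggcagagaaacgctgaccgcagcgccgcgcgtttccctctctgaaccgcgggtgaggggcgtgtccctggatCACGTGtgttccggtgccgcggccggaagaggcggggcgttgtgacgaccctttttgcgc
Polr1c: cggaagtgaaggACGTGgacagaggcgggg
Nop56: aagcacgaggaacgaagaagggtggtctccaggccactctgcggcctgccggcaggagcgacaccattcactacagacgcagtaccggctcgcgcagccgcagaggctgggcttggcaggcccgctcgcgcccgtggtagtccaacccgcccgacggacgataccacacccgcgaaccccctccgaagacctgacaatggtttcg
Nop2 and Nop56 were both lower in all 3 hypoxia sets, whereas Imp4 was lower in 2 and Polr1c in 0 of them.

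The box C/D snoRNP, which carries out 2′-O-methylation of ribosomal RNA, was measured through its methyltransferase fibrillarin (Fbl), its scaffold proteins Nop56 and Nop58, and Rrp9, a protein of the U3 snoRNP. All 4 were lower in the chamber, 1 in experiment 1, 3 in experiment 2, 3 at 100 µM and 2 at 200 µM. Nop56 stood at 8.95 and 9.09 in the chamber controls and at 7.44, 7.39 and 7.33 under chamber hypoxia. In the incubator it stood at 8.77 and 9.10 in the controls of experiment 1 and at 8.18, 8.24 and 8.16 under its hypoxia, and at 8.87 and 9.12 in the controls of experiment 2 and at 7.75, 8.00 and 7.92 under its hypoxia. Across the CoCl2 set it stood at 9.93 and 10.01 in the controls, at 7.53 and 7.54 with 100 µM and at 8.24 and 7.91 with 200 µM. Treated and control arrays did not overlap in any set, and the lowest hypoxia levels were those of the chamber. The differences were -1.63 ± 0.12 (adjusted p = 2.74e-09) in the chamber, -0.74 ± 0.12 (adjusted p = 0.00013) in experiment 1 and -1.11 ± 0.12 (adjusted p = 7.93e-07) in experiment 2 (± is the standard error, SE, here and throughout). With CoCl2 they were -2.43 ± 0.13 (adjusted p = 5.56e-12) at 100 µM and -1.90 ± 0.13 (adjusted p = 1.62e-10) at 200 µM, the lowest of any member at either dose. A second, dimmer probe set of Nop56 is annotated to it alone but is of the kind that can match a sequence family. That probe set also fell at both doses, by 0.87 and 0.68. Its differences of -0.37, -0.22 and -0.17 in the chamber and experiments 1 and 2 did not pass the test one by one.

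Nop58, measured by a probe set that can match a sequence family, stood at 7.28 and 7.33 in the chamber controls and at 6.04, 6.08 and 6.12 under chamber hypoxia. Its incubator levels were 6.78 and 6.99 in the controls of experiment 1 and 6.84, 7.21 and 6.71 under its hypoxia, and 6.80 and 7.11 in the controls of experiment 2 and 6.65, 6.40 and 6.59 under its hypoxia. Its levels in experiment 3 were 7.92 and 7.65 in the controls, 5.97 and 6.46 with 100 µM and 7.27 and 6.82 with 200 µM. The chamber arrays were apart by -1.22 ± 0.16 (adjusted p = 1.06e-05), while in experiment 1 the groups overlapped, with 0.04 ± 0.16 (adjusted p = 0.919). It fell by 1.57 ± 0.18 at 100 µM and by 0.74 ± 0.18 at 200 µM. Fibrillarin stood at 9.85 and 9.95 in the chamber controls and at 8.83, 8.79 and 8.62 under chamber hypoxia. The incubator arrays read 9.62 and 9.58 in the controls of experiment 1 and 9.32, 9.47 and 9.30 under its hypoxia, and 9.81 and 9.49 in the controls of experiment 2 and 8.81, 8.87 and 8.82 under its hypoxia. For the CoCl2 set the arrays read 8.56 and 8.92 in the controls, 8.00 and 7.61 with 100 µM and 8.23 and 8.97 with 200 µM. It fell in the chamber, by 1.15 ± 0.17, and in experiment 2, by 0.82 ± 0.17; the 3 hypoxia arrays of experiment 1 were also all below its controls, but -0.24 ± 0.17 (adjusted p = 0.394) did not pass. At 100 µM the difference was -0.94 ± 0.18 (adjusted p = 0.000364), and at 200 µM, where 1 array lay above both controls, it was -0.14 ± 0.18 (adjusted p = 0.555).

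Rrp9 was lower in the chamber and in experiment 2 and was called at neither CoCl2 dose. It stood at 7.73 and 7.71 in the chamber controls and at 7.22, 7.21 and 7.24 under chamber hypoxia. It stood at 7.68 and 7.70 in the controls of experiment 1 and at 7.29, 7.42 and 7.39 under its hypoxia, and at 7.77 and 7.72 in the controls of experiment 2 and at 7.12, 7.25 and 7.20 under its hypoxia. With or without CoCl2 it read 7.07 and 7.16 in the controls, 7.34 and 6.76 with 100 µM and 7.23 and 7.20 with 200 µM. The hypoxia differences were -0.50 ± 0.12 (adjusted p = 0.00463), -0.32 ± 0.12 (adjusted p = 0.0683) and -0.55 ± 0.12 (adjusted p = 0.00238) in the chamber and experiments 1 and 2, with no overlap in any set. With CoCl2 they were -0.06 ± 0.13 and 0.10 ± 0.13, neither called, and the mean CoCl2 difference minus the mean hypoxia difference was 0.47 ± 0.13 (adjusted p = 0.0125), the 1 member for which that test was positive; the call was lost without the first control array of experiment 3.

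The H/ACA snoRNP converts uridine to pseudouridine, and its proteins Nhp2, Nop10 and Gar1, also parts of telomerase, were measured; its catalytic subunit Dkc1 was not analysed here. All 3 were lower in the chamber, in experiment 2 and at 100 µM, 2 at 200 µM and 1 in experiment 1. Nhp2 stood at 10.16 and 10.35 in the chamber controls and at 9.01, 9.20 and 9.22 under chamber hypoxia. In the incubator it stood at 9.81 and 9.93 in the controls of experiment 1 and at 9.16, 9.28 and 9.20 under its hypoxia, and at 10.02 and 10.09 in the controls of experiment 2 and at 9.27, 9.25 and 9.31 under its hypoxia. In experiment 3 it stood at 10.62 and 10.50 in the controls, at 8.50 and 8.96 with 100 µM and at 8.78 and 8.76 with 200 µM. No treated array of Nhp2 reached a control of its own set. Its differences were -1.11 ± 0.12 (adjusted p = 5.2e-07), -0.66 ± 0.12 (adjusted p = 0.000343) and -0.78 ± 0.12 (adjusted p = 5.62e-05) in the 3 hypoxia sets, and -1.83 ± 0.13 and -1.79 ± 0.13 at the 2 doses. Nop10 fell by 0.81 in the chamber, 0.48 in experiment 2 and 1.56 at 100 µM, and its differences in experiment 1 (-0.24) and at 200 µM (-0.25) did not pass. Gar1 fell by 0.91 in the chamber, 0.61 in experiment 2, 0.93 at 100 µM and 0.94 at 200 µM, with -0.19 in experiment 1 not called. Another probe set of Gar1 was at 0.23 in the chamber, was called higher at 100 µM, by 0.39, and was at 0.09 at 200 µM.

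RNA polymerase I and its factors split by gene. The catalytic subunit Polr1a fell under all 5 treatments and the second-largest subunit Polr1b under 3, whereas Polr1c and Polr1d, which RNA polymerase III also contains, were not lower in any hypoxia set. Of the 6 genes of the group, 3 were lower in the chamber, 2 in each incubator experiment, 4 at 100 µM and 4 at 200 µM. Polr1a stood at 7.56 and 7.51 in the chamber controls and at 6.69, 6.71 and 6.79 under chamber hypoxia. Its incubator levels were 7.30 and 7.56 in the controls of experiment 1 and 6.94, 7.08 and 6.84 under its hypoxia, and 7.81 and 7.46 in the controls of experiment 2 and 6.91, 7.13 and 7.06 under its hypoxia. Across the CoCl2 set it stood at 7.89 and 8.03 in the controls, at 7.12 and 7.25 with 100 µM and at 7.10 and 7.63 with 200 µM. Controls and treated arrays did not overlap, and its differences were -0.81 ± 0.14, -0.47 ± 0.14 and -0.60 ± 0.14 in the 3 hypoxia sets and -0.77 ± 0.15 and -0.60 ± 0.15 at the 2 doses, with adjusted p from 0.000178 in the chamber to 0.0195 in experiment 1. Another probe set of Polr1a was called higher at 100 µM, by 0.59, and was not called in the chamber, at 0.17.

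Polr1b, measured by a probe set that can match a sequence family, stood at 7.06 and 7.26 in the chamber controls and at 6.88, 6.93 and 6.87 under chamber hypoxia. The incubator arrays read 7.05 and 7.14 in the controls of experiment 1 and 6.81, 6.77 and 6.79 under its hypoxia, and 7.10 and 7.11 in the controls of experiment 2 and 6.82, 6.92 and 6.76 under its hypoxia. Its levels in experiment 3 were 7.38 and 7.17 in the controls, 6.90 and 6.84 with 100 µM and 6.73 and 6.82 with 200 µM. The groups did not overlap in any set, and differences were small, at -0.27 ± 0.10, -0.30 ± 0.10 and -0.27 ± 0.10 under hypoxia, with adjusted p of 0.0542, 0.0344 and 0.0674. At the 2 doses they were -0.41 ± 0.11 (adjusted p = 0.00551) and -0.50 ± 0.11 (adjusted p = 0.000715). Polr1c stood at 7.86 and 8.00 in the chamber controls and at 8.01, 7.72 and 7.75 under chamber hypoxia. It stood at 8.18 and 8.19 in the controls of experiment 1 and at 8.67, 8.73 and 8.67 under its hypoxia, and at 8.28 and 8.09 in the controls of experiment 2 and at 8.42, 8.41 and 8.29 under its hypoxia. For the CoCl2 set the arrays read 7.43 and 7.53 in the controls, 6.97 and 7.10 with 100 µM and 7.33 and 8.03 with 200 µM. It was higher in experiment 1, by 0.50 ± 0.14 (adjusted p = 0.0163), not called in the chamber (-0.11) or experiment 2 (0.19), lower at 100 µM (-0.44 ± 0.16 (adjusted p = 0.0313)) and not called at 200 µM (0.20), where 1 array lay above and 1 below both controls. Its other probe set was called higher at 100 µM, by 0.43, so the direction of Polr1c at that dose depends on the probe set.

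Polr1d stood at 6.50 and 6.76 in the chamber controls and at 6.67, 6.29 and 6.35 under chamber hypoxia. In the incubator it stood at 6.12 and 6.25 in the controls of experiment 1 and at 6.64, 6.55 and 6.64 under its hypoxia, and at 6.70 and 6.62 in the controls of experiment 2 and at 6.84, 6.64 and 6.74 under its hypoxia. With or without CoCl2 it read 5.72 and 5.76 in the controls, 5.67 and 5.28 with 100 µM and 5.40 and 6.75 with 200 µM. The hypoxia arrays of experiment 1 were all above its controls, but the difference of 0.42 ± 0.23 (adjusted p = 0.24) did not pass, and the 2 arrays at 200 µM were far apart. Ubtf, the upstream binding factor that keeps ribosomal DNA open for transcription, stood at 8.29 and 8.48 in the chamber controls and at 7.87, 8.02 and 7.92 under chamber hypoxia. Its incubator levels were 8.33 and 8.49 in the controls of experiment 1 and 8.38, 8.40 and 8.27 under its hypoxia, and 8.34 and 8.40 in the controls of experiment 2 and 8.24, 8.27 and 8.17 under its hypoxia. In experiment 3 it stood at 8.26 and 8.05 in the controls, at 7.96 and 8.14 with 100 µM and at 7.53 and 7.80 with 200 µM. It fell in the chamber, by 0.45 (adjusted p = 0.00523), and at 200 µM, by 0.49 (adjusted p = 0.00271), and was near its controls in experiment 1 (-0.06). Tcof1, the treacle protein that ties RNA polymerase I to ribosomal DNA, fell by 0.66 in the chamber, 0.61 in experiment 2, 1.04 at 100 µM and 1.01 at 200 µM, and -0.26 in experiment 1 did not pass.

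Small subunit factors included the U3 proteins Imp3, Imp4 and Mphosph10, the processome protein Wdr43, the methyltransferase Emg1, and Bysl, Rcl1 and Tsr1, which act in 40S maturation. Of these 8, 6 were lower in the chamber, 3 in experiment 1, 5 in experiment 2, all 8 at 100 µM and 5 at 200 µM. Bysl, the bystin protein, stood at 7.39 and 7.73 in the chamber controls and at 6.29, 6.13 and 6.17 under chamber hypoxia. The incubator arrays read 7.02 and 7.47 in the controls of experiment 1 and 6.59, 6.84 and 6.39 under its hypoxia, and 7.49 and 7.44 in the controls of experiment 2 and 6.49, 6.51 and 6.46 under its hypoxia. Across the CoCl2 set it stood at 7.97 and 7.84 in the controls, at 6.51 and 6.83 with 100 µM and at 6.68 and 6.59 with 200 µM. All treated arrays lay below their controls, and the differences were -1.36 ± 0.14 (adjusted p = 4.67e-07), -0.64 ± 0.14 (adjusted p = 0.00279) and -0.98 ± 0.14 (adjusted p = 3.75e-05) in the 3 hypoxia sets and -1.23 ± 0.16 and -1.27 ± 0.16 at the doses. A second, dimmer probe set of Bysl was called under no treatment. Tsr1 fell under all 5 treatments, by 1.34, 0.63 and 0.72 in the chamber and experiments 1 and 2 and by 1.71 and 1.19 at 100 and 200 µM. Rcl1 fell by 1.03, 0.41 and 0.49 under hypoxia and by 0.95 and 0.55 with CoCl2. Wdr43 fell in all but experiment 1 (-0.34, not called), with -0.72 in the chamber and -1.16 at 100 µM. Its other probe set was called in the chamber only, at -0.41, and was at 0.29 and -0.17 in experiments 1 and 2 and at -0.24 and 0.07 at the doses. Imp4 fell in the chamber (-0.66), experiment 2 (-0.45) and at 100 µM (-0.65), although another probe set of Imp4 was called higher at that dose, by 0.51, and was at -0.06 in the chamber. Imp3 fell in the chamber (-0.82) and at both doses (-0.98 and -0.64). Mphosph10 and Emg1 were lower at 100 µM alone, at -0.52 and -0.99, and their chamber differences of -0.16 and -0.47 did not pass, although every chamber hypoxia array was below the controls for both.

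The 3 PeBoW genes were not called alike. Bop1 fell under all 5 treatments, and Pes1 fell in the chamber and at 100 µM. Pes1 was called higher in experiment 1, as were 3 of the 38 members and 7.57% of all genes. That call was lost without either control of experiment 1. Wdr12, read by a dim probe set, was lower at 200 µM alone. Bop1 stood at 7.43 and 7.54 in the chamber controls and at 6.22, 5.90 and 6.11 under chamber hypoxia. It stood at 7.20 and 7.17 in the controls of experiment 1 and at 6.12, 6.21 and 5.88 under its hypoxia, and at 7.29 and 7.49 in the controls of experiment 2 and at 6.03, 6.14 and 6.15 under its hypoxia. Its levels in experiment 3 were 7.23 and 6.96 in the controls, 5.14 and 5.64 with 100 µM and 5.77 and 6.17 with 200 µM. The hypoxia arrays of the 3 sets lay between 5.88 and 6.22, and the differences were -1.41 ± 0.15 (adjusted p = 4.81e-07), -1.12 ± 0.15 (adjusted p = 1.24e-05) and -1.28 ± 0.15 (adjusted p = 1.98e-06), with -1.71 ± 0.16 at 100 µM and -1.13 ± 0.16 at 200 µM. Its mean hypoxia difference of -1.27 ± 0.09 was the lowest of the 38 members. Another probe set of Bop1 did not follow: it was at 0.30, -0.03 and -0.08 in the 3 hypoxia sets, was called higher at 100 µM, by 0.64, and was not called at 200 µM, at 0.35. The result for Bop1 therefore rests on 1 of its 2 probe sets. Pes1 (pescadillo) fell by 0.54 in the chamber and 0.49 at 100 µM, rose by 0.51 in experiment 1 with all hypoxia arrays above the controls, and was not called in experiment 2 (-0.11) or at 200 µM (0.05). Wdr12 stood at 3.52 and 3.37 in the chamber controls and at 3.41, 3.37 and 3.34 under chamber hypoxia. In the incubator it stood at 3.38 and 3.60 in the controls of experiment 1 and at 3.31, 3.36 and 3.52 under its hypoxia, and at 3.47 and 3.50 in the controls of experiment 2 and at 3.37, 3.40 and 3.39 under its hypoxia. For the CoCl2 set the arrays read 3.50 and 3.45 in the controls, 3.50 and 3.47 with 100 µM and 3.22 and 3.13 with 200 µM. Its difference of -0.30 ± 0.11 (limma adjusted p = 0.0308) at 200 µM passed and its hypoxia differences, from -0.10 to -0.07, did not. That call was lost without either control or without the second array at 200 µM. Its controls differed least between the 4 sets of all members (range 0.045). The mean level of Wdr12 was at percentile 11.9 of all genes, and whether its probe set was above background could not be said.

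Large subunit factors were lower mainly in the chamber and at 100 µM. Of the 10 measured, 9 were lower in the chamber, 1 in experiment 1, 2 in experiment 2, 8 at 100 µM and 3 at 200 µM. Nop2, a ribosomal RNA methyltransferase, was the gene of the group called in all 3 hypoxia sets, at -0.77, -0.46 and -0.50, and it fell by 0.87 and 0.72 at the doses. Rrs1, which helps to bring the 5S ribonucleoprotein into the large subunit, stood at 8.03 and 8.00 in the chamber controls and at 6.83, 6.85 and 6.66 under chamber hypoxia. Its incubator levels were 7.79 and 7.80 in the controls of experiment 1 and 7.39, 7.47 and 7.53 under its hypoxia, and 7.56 and 7.77 in the controls of experiment 2 and 7.26, 7.08 and 6.97 under its hypoxia. With or without CoCl2 it read 7.67 and 7.38 in the controls, 6.11 and 6.20 with 100 µM and 6.31 and 6.61 with 200 µM. No treated array overlapped its controls; the differences were -1.23 ± 0.12 (adjusted p = 1.51e-07), -0.33 ± 0.12 (adjusted p = 0.0581) and -0.57 ± 0.12 (adjusted p = 0.00184) in the hypoxia sets, of which that of experiment 1 did not pass, and -1.37 ± 0.13 and -1.06 ± 0.13 at the doses. Ebna1bp2 stood at 6.79 and 6.79 in the chamber controls and at 5.55, 5.67 and 5.72 under chamber hypoxia. The incubator arrays read 6.03 and 6.47 in the controls of experiment 1 and 5.99, 6.34 and 6.02 under its hypoxia, and 6.08 and 6.29 in the controls of experiment 2 and 5.84, 6.12 and 5.83 under its hypoxia. In experiment 3 it stood at 6.24 and 6.51 in the controls, at 4.81 and 5.12 with 100 µM and at 5.54 and 5.74 with 200 µM. It fell in the chamber, by 1.14 ± 0.15, and at both doses, by 1.41 and 0.74, while the groups overlapped in experiments 1 (-0.13) and 2 (-0.26).

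Ftsj3, a methyltransferase-like factor of pre-ribosomal RNA processing, stood at 5.63 and 5.80 in the chamber controls and at 4.21, 4.49 and 4.43 under chamber hypoxia. It stood at 4.86 and 4.89 in the controls of experiment 1 and at 4.70, 5.31 and 4.88 under its hypoxia, and at 4.76 and 5.12 in the controls of experiment 2 and at 4.65, 4.46 and 4.57 under its hypoxia. Across the CoCl2 set it stood at 4.80 and 4.54 in the controls, at 3.01 and 3.64 with 100 µM and at 4.62 and 5.08 with 200 µM. The chamber controls were the highest of its 4 control pairs and the chamber hypoxia arrays among the lowest hypoxia arrays, which gave -1.34 ± 0.18 (adjusted p = 1.43e-05), against 0.08 ± 0.18 in experiment 1 and -0.38 ± 0.18 in experiment 2. It fell by 1.34 at 100 µM and was not called at 200 µM, at 0.18 ± 0.20. A second probe set was called under no treatment, at 0.027 in the chamber and 0.057 in experiment 1. The mean level of the Ftsj3 set used here was at percentile 27.8 of all genes, and whether it was above background could not be said. Gnl3 (nucleostemin), a nucleolar GTPase of proliferating cells, fell by 0.71 in the chamber and 1.14 at 100 µM and rose by 0.38 in experiment 1, with -0.03 in experiment 2 and -0.02 at 200 µM not called. Among the RNA helicases, Ddx18 fell by 0.36 and Ddx56 by 0.68 in the chamber, with 0.28 and 0.04 in experiment 1 not called; at 100 µM Ddx18 was lower (-0.40) and Ddx56 was not called (-0.34). Nip7 and Surf6 fell in the chamber, by 0.43 and 0.72, Surf6 also fell at 100 µM, by 0.63, and both were not called in experiment 1 (0.21 and -0.03). The other probe set of Nip7 fell by 0.51 in the chamber and also at both doses, by 0.65 and 0.61, where the set used here did not pass. Rrp1 was lower at 100 µM alone (-0.96); its chamber difference of -0.38 and its experiment 1 difference of 0.44 had opposite signs and neither passed.

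Of the abundant organisers and the helicase Ddx21, which works on ribosomal DNA transcription and snoRNAs, 3 of 4 were lower in the chamber, in experiment 2 and at each dose, and 1 in experiment 1. The exception was nucleophosmin. Nolc1 (Nopp140), a snoRNP chaperone, stood at 5.70 and 5.92 in the chamber controls and at 4.98, 4.88 and 4.70 under chamber hypoxia. In the incubator it stood at 5.51 and 5.63 in the controls of experiment 1 and at 4.97, 5.10 and 5.03 under its hypoxia, and at 5.66 and 5.65 in the controls of experiment 2 and at 4.80, 4.77 and 4.85 under its hypoxia. Its levels in experiment 3 were 5.82 and 5.76 in the controls, 4.82 and 4.67 with 100 µM and 4.83 and 5.01 with 200 µM. The groups were apart in every set, by -0.95 ± 0.11 (adjusted p = 1.02e-06), -0.54 ± 0.11 (adjusted p = 0.000934) and -0.85 ± 0.11 (adjusted p = 5.74e-06) under hypoxia and by -1.04 ± 0.12 and -0.87 ± 0.12 with CoCl2. Nucleolin stood at 10.38 and 10.39 in the chamber controls and at 9.77, 9.69 and 9.72 under chamber hypoxia. Its incubator levels were 10.02 and 10.21 in the controls of experiment 1 and 10.03, 10.11 and 9.97 under its hypoxia, and 10.15 and 10.01 in the controls of experiment 2 and 9.70, 9.55 and 9.44 under its hypoxia. For the CoCl2 set the arrays read 10.42 and 10.35 in the controls, 9.41 and 9.44 with 100 µM and 9.68 and 9.83 with 200 µM. It fell by 0.65 in the chamber, 0.52 in experiment 2, 0.96 at 100 µM and 0.63 at 200 µM, and its groups overlapped in experiment 1 (-0.08). Nucleophosmin stood at 10.74 and 10.64 in the chamber controls and at 10.27, 10.48 and 10.52 under chamber hypoxia. The incubator arrays read 10.30 and 10.34 in the controls of experiment 1 and 10.36, 10.54 and 10.46 under its hypoxia, and 10.29 and 10.47 in the controls of experiment 2 and 10.29, 10.31 and 10.41 under its hypoxia. With or without CoCl2 it read 10.99 and 10.85 in the controls, 10.09 and 10.89 with 100 µM and 10.93 and 10.63 with 200 µM. Its chamber hypoxia arrays were below the controls and those of experiment 1 above them, yet neither -0.26 ± 0.16 (adjusted p = 0.239) nor 0.13 ± 0.16 (adjusted p = 0.664) passed. Ddx21 fell by 0.87 in the chamber, 0.83 in experiment 2 and 1.17 and 0.75 at the doses, and -0.19 in experiment 1 was not called.

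**Figure D3:**
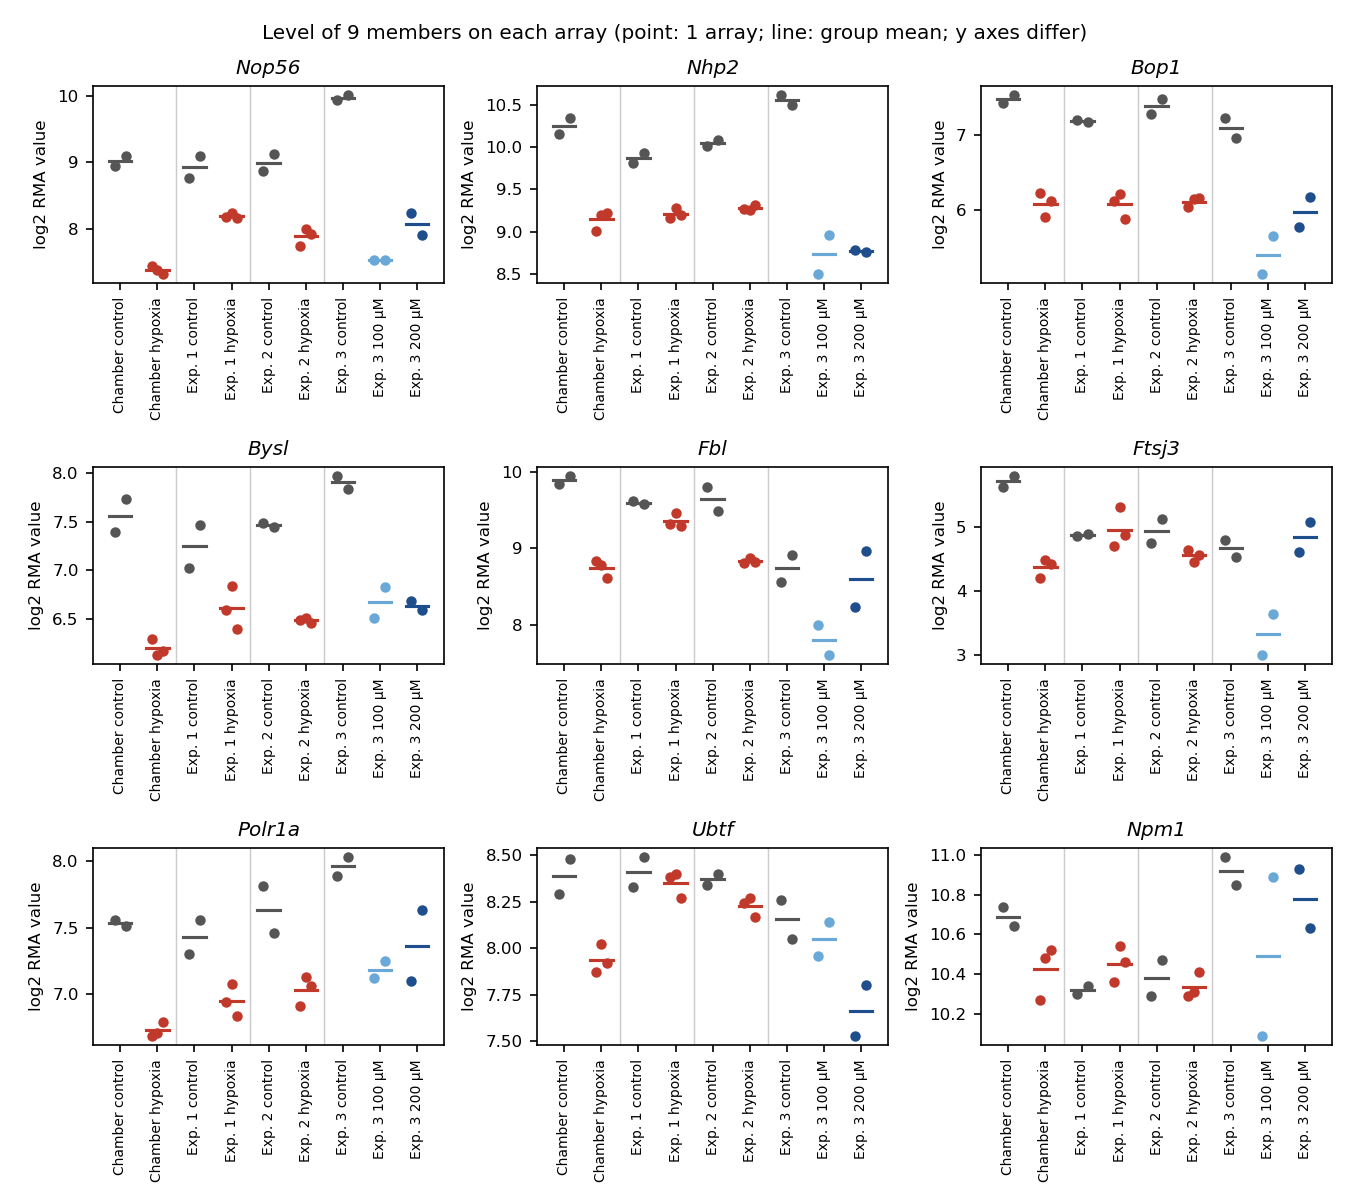
Levels of 9 members in every array: each panel is 1 gene (Nop56, Nhp2, Bop1, Bysl, Fbl, Ftsj3, Polr1a, Ubtf and Npm1), the x axis shows the 9 groups and the y axis the level in log2 units, with 1 point per array. Nop56 falls from 8.95 and 9.09 to between 7.33 and 7.44 in the chamber, whereas Npm1 overlaps its controls at both CoCl2 doses.

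To ask how the chamber and the incubator compared, the chamber difference of each gene was set against that of each incubator experiment. Against experiment 1, 15 of the 38 members had a lower difference in the chamber and 0 a higher one, where 2.91% of all genes passed in that direction and 1.1% in the other, with a median of -0.63 against 0.06. By role, these were 7 of 10 large subunit genes, 3 of 4 box C/D genes, 2 of 8 small subunit genes, 1 each of the H/ACA, PeBoW and organiser groups, and 0 of 6 polymerase I genes. The widest gaps were those of Ftsj3, at -1.42 ± 0.26 (adjusted p = 0.0039), Nop58, at -1.26 ± 0.23 (adjusted p = 0.00401), Gnl3, at -1.09 ± 0.18 (adjusted p = 0.00222), and Pes1, at -1.05 ± 0.18 (adjusted p = 0.00268). Ftsj3 was read by a dim probe set. The call of 5 of the 15 held without any single array, and 10 lost it without some array; the count of members lower was 6 without the second chamber control, 8 without the first or without the first control of experiment 1, and 9 without the second or without the third chamber hypoxia array. Quantile scaling gave 8, a replicate block 2, the arrays of these sets alone 26 and array weights 31. For Bop1, the gap was -0.30 ± 0.21 (adjusted p = 0.421), and for Polr1a it was -0.34 ± 0.20 (adjusted p = 0.326).

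Both arms contributed. Chamber controls were higher than those of experiment 1 for 33 of 38 members, by a median of 0.25, and chamber hypoxia arrays were lower for 36, with a median difference of -0.41. Over all genes, 57.8% were lower in the chamber controls (median -0.05) and 48.4% in the chamber hypoxia arrays (median 0.01). Against experiment 2 the same held in smaller steps, with controls higher for 29 (median 0.14) and hypoxia arrays lower for 31 (median -0.23), against 57.9% (median -0.04) and 49.8% of all genes lower (median 0.0008). The control levels of a member spanned a median of 0.53 over the 4 sets, at most 1.16 (Fbl). These comparisons of levels lie across sets and were not tested. Of the 3 hypoxia differences, that of the chamber was lowest in 34 of 38 members (2752 of 8251 genes).

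Against experiment 2, 0 of 38 members differed from the chamber (0.0606% of all genes lower and 0.0242% higher, median -0.30 against 0.03), by limma's adjusted p, of which the lowest was 0.126. At an unadjusted p under 0.05, 12 members were lower and 0 higher, against 6.82% of all genes lower and 6.34% higher; a fit on the arrays of these sets alone, and one with array weights, each called 11. Between experiments 1 and 2, both in the incubator, 0 members differed (0.194% of all genes lower and 0.133% higher), with a median of 0.30 against -0.01 and a lowest adjusted p of 0.187; 8 were higher at an unadjusted p under 0.05 and 0 lower, against 3.33% of all genes higher and 5.39% lower. The chamber was apart from 1 incubator experiment and not, at this threshold, from the other, and the p-values that missed do not show that the sets were alike.

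**Figure D4:**
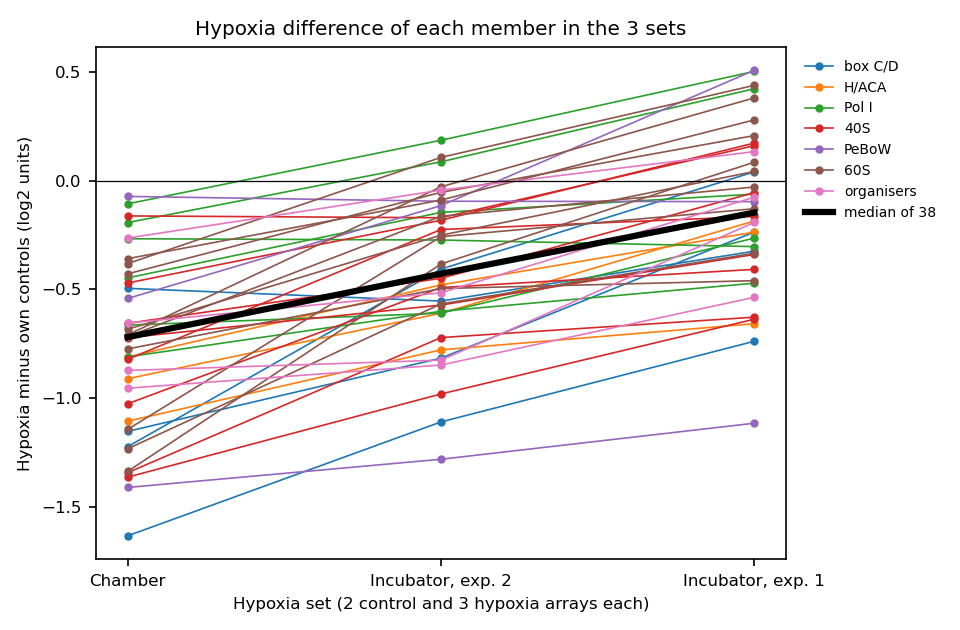
Hypoxia differences of the 38 measured members in the chamber and in incubator experiments 1 and 2: each line is 1 gene and the y axis is the log2 difference from its own controls. The chamber difference is the lowest of the 3 in 34 members, and in 2752 of 8251 genes.

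The 2 CoCl2 doses differed without a control being involved. Setting the 200 µM arrays against the 100 µM arrays, 16 members were higher at 200 µM (7.83% of all genes) and 1, Ubtf, was lower (8.85% of all genes), with a median of 0.33 against -0.02. The widest gaps were those of Ftsj3, read by a dim probe set, at 1.52 ± 0.20 (adjusted p = 2.27e-05), Nop10, at 1.31 ± 0.13 (adjusted p = 5.39e-07), Gnl3, at 1.12 ± 0.14 (adjusted p = 1.33e-05), and Rrp1, at 1.09 ± 0.27 (adjusted p = 0.00778). Ubtf was at -0.38 ± 0.12 (adjusted p = 0.0326). Both 200 µM arrays lay above both 100 µM arrays in 21 members, below in 3, and the arrays overlapped in 14, while over all genes they lay above in 17.7% and below in 18.9%. Nop56 stayed far below its controls at both doses but was higher at 200 µM, by 0.54 ± 0.13 (adjusted p = 0.00689), while Nhp2 (0.04), Bysl (-0.03) and Nolc1 (0.18) were not called between doses. The 2 arrays at 200 µM were themselves apart, with member means of 6.98 in the first and 7.24 in the second. The count of 17 became 6 without the second array at 200 µM and 10 without the first array at 100 µM. With array weights, or with the arrays of experiment 3 alone, the count was 3. RNA quality also differed between the doses, without a trend from the controls up. The 3′ minus 5′ Actb differences were 1.41 and 1.62 in the controls, 2.36 and 2.16 at 100 µM, and 1.47 and 0.50 at 200 µM. With the Actb difference as a covariate, the dose count was 1 and the median 0.05. The part of RNA quality in the difference between doses was not tested beyond this fit.

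**Figure D5:**
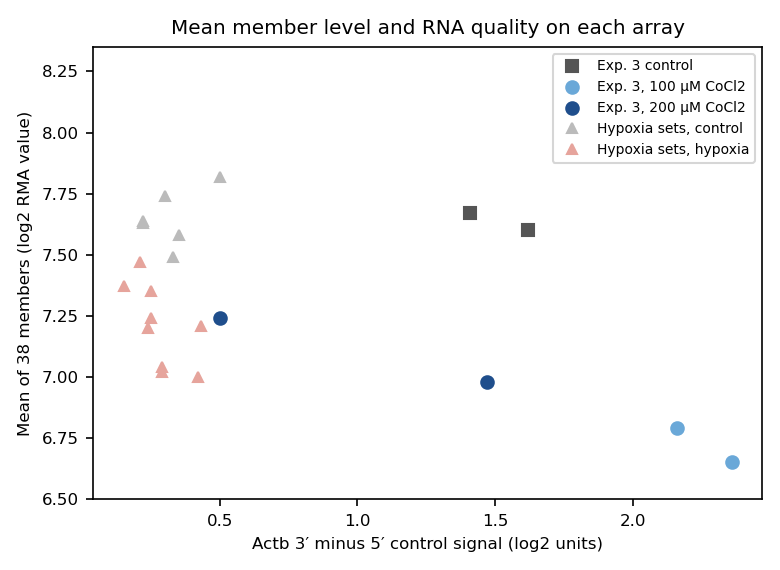
Mean of the 38 measured members against RNA quality, 1 point per array: the x axis is the 3′ minus 5′ difference of the Actb control probe sets and the y axis the mean member level, both in log2 units, with groups by colour and marker. The 100 µM arrays lie lowest, at 6.65 and 6.79, and farthest right, at 2.36 and 2.16, while the controls of experiment 3 stand at 7.67 and 7.60 with 1.41 and 1.62.

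Against hypoxia, the mean CoCl2 difference was lower for 12 members (16% of all genes) and higher for 1 (9.33%), Rrp9, with a median of -0.24 against 0.09. The 12 were Nop56, Nop58, Nhp2, Nop10, Gar1, Tcof1, Wdr43, Tsr1, Rrs1, Ebna1bp2, Gnl3 and Ncl, led by Nop56, at -1.004 ± 0.13 (adjusted p = 7.32e-06), and Nhp2, at -0.96 ± 0.13 (adjusted p = 8.89e-06). All 3 measured H/ACA genes were among them, and of the 13 calls, 3, those of Nop56, Nhp2 and Wdr43, held without any single array. Without the first control of experiment 3 the count was 4. Treatment, set and RNA quality differ together here and cannot be told apart.

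Other genes of the pathway, chosen by name from the same biology, gave the following counts. Of 71 measured of 133 ribosome biogenesis genes listed, 35 were lower and 2 higher in the chamber, 10 and 2 in experiment 2 and 32 and 6 at 100 µM, so the shares lower were 49.3%, 14.1% and 45.1%, against 15.1%, 7.79% and 20.7% of all genes. In experiment 1, 4 were lower and 7 higher, and at 200 µM 12 were lower and 15 higher. The shares lower there, 5.63% and 16.9%, were under those of all genes, 10.7% and 22.3%. The shares of all genes called higher were 7.96%, 7.57% and 7.55% in the chamber and experiments 1 and 2. At 100 and 200 µM they were 17.6% and 19.7%. The medians of the 71 genes were -0.34 in the chamber, 0.08 in experiment 1 and -0.15 in experiment 2. With CoCl2 they were -0.29 at 100 µM and 0.07 at 200 µM. Of the 71, 18 had a lower difference in the chamber than in experiment 1 and 0 a higher one (2.91% and 1.1% of all genes). The lowest mean hypoxia differences were those of Utp4 (-0.84), Pno1 (-0.69), Nop16 (-0.68) and Rrp1b (-0.64), all factors of pre-ribosome processing. Of 15 further subunits and factors of polymerase I, 11 were measured. Among these, Polr2e, Polr2f, Polr2h and Polr2l are also subunits of polymerases II and III. Of the 11, 6 were lower in the chamber, 2 in experiment 1, 3 in experiment 2, 7 at 100 µM and 4 at 200 µM. At the doses, 1 and 2 were higher. The shares lower were 54.5%, 18.2%, 27.3%, 63.6% and 36.4% in that order. Among them, Polr1e, a polymerase I subunit named here after its values were seen, was at -0.80, -0.45 and -0.61 in the hypoxia sets and at -0.98 and -1.03 at the doses, lower in each. Taf1d, a subunit of the promoter selectivity factor chosen in the same way, was lower in each too, at -0.94, -0.32, -0.80, -0.77 and -0.63. Of the 11, the difference was below 0 for 8 in the chamber, 7 in experiment 1, 6 in experiment 2 and 8 at each dose. Taf1a went the other way with CoCl2, from a mean of 5.40 in the controls to 5.74 at 100 µM and 6.25 at 200 µM.

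Of the 6 genes of the MYC network listed, Myc alone differed between CoCl2 and hypoxia, and the other 5 were not called in that comparison. Myc rose in the chamber, by 0.89 ± 0.15 (adjusted p = 0.000135), and in experiment 1, by 0.81 ± 0.15 (adjusted p = 0.000451), and 0.43 ± 0.15 (adjusted p = 0.0559) in experiment 2 did not pass. With CoCl2 it fell, at -0.998 ± 0.16 (adjusted p = 5.44e-05) with 100 µM and -0.70 ± 0.16 (adjusted p = 0.00158) with 200 µM, and the gap between CoCl2 and hypoxia was -1.56 ± 0.17 (adjusted p = 3.1e-07). Myc was thus called higher in the chamber and experiment 1 and lower at both CoCl2 doses. In each of the 5 treatments more nucleolar members were called lower than higher. A link between Myc and the members was not tested. Mxi1, which encodes a MYC antagonist that pairs with Max, was higher under all 5 treatments, at 1.70, 2.02 and 2.10 in the hypoxia sets and 2.15 and 1.39 at the doses. Mxd4, of the same family, rose in the chamber (1.64), experiment 2 (1.21) and at both doses (0.93 and 0.90), and 0.23 in experiment 1 was not called. Max fell in the chamber (-0.59) and rose at 200 µM (0.82), Mnt rose at both doses (0.58 and 0.51), and Mycn rose at 100 µM (0.38).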

How the data were processed

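RNA of B16-F10 cells was measured on 21 Affymetrix U74Av2 arrays in 9 label groups of 2 or 3. The authors deposited 1 log2 RMA value for each probe set of each array, using GCOS 1.2 and RMA per the submitters' processing notes; neither the RMA version nor whether arrays were run together is given in the sources used here. RMA places arrays on 1 scale, so a shift shared by most genes would not be seen. The values were used without further scaling.

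Of 12488 probe sets, 10833 named 1 gene; the set with the highest mean over all arrays represented each of 8251 genes. Sets ending in _f_at, which can match a sequence family, represent Nop58 and Polr1b. The fit, in limma 3.58.1 under R 4.3.3, gave every label group its own mean and used all arrays at once (12 residual degrees of freedom, 20.9 after moderation), and p-values were adjusted by Benjamini-Hochberg over all genes. A gene was called at an adjusted p under 0.05. The scripts were tested on simulated data. The number of arrays limits the precision.

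The members and all gene lists were chosen with earlier results of these data known, so no set was tested and counts are given beside the share of all genes called. Every member is named. Levels in every array are given for the member of each role group with the largest mean hypoxia difference, the 2 with the largest difference of the chamber from each incubator experiment, the 2 highest and 2 lowest at each CoCl2 dose, and Ncl, Npm1, Fbl, Polr1a, Polr1b and Ubtf. Other named genes are the MYC network and the 4 other ribosome biogenesis genes with the largest mean hypoxia difference. Polr1e, Taf1d, Taf1a, Polr2e, Polr2f, Polr2h, Polr2l, Cd68 and Ptprc are named besides. Replicate numbers were not used to pair arrays, and the labels do not say whether same-numbered arrays belong together. Residuals of same-numbered arrays correlated between -0.370 and 0.235. That cannot settle the question, since in a group of 2 arrays the residuals are equal and opposite. Alternatives were median centring, quantile scaling, a filter on dim genes, the mean or the lowest of a gene's probe sets, a trended robust prior, array weights, the sets compared alone, the Actb 3′ minus 5′ difference as covariate, a replicate block and leaving out each array; leaving experiment 1 out of the hypoxia mean was added after seeing the data.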

Additional observations from a re-analysis of the deposited data

Results flagged for a closer look

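The 15 members whose hypoxia difference in the chamber was lower than in experiment 1, by limma's adjusted p, are given here with the size of that gap on the log2 scale. The gap was -1.42 for Ftsj3, -1.26 for Nop58, -1.09 for Gnl3, -1.05 for Pes1 and -1.01 for Ebna1bp2. It was -0.92 for Fbl, -0.90 for Rrs1 and -0.89 for Nop56. For Gar1, Bysl and Ddx56 it was -0.73 each, for Nip7 and Ddx18 -0.64 each, for Rcl1 -0.62 and for Ncl -0.58. Gnl3 and Pes1 were called in opposite directions in the 2 sets, but their calls in experiment 1 were lost without either of its controls. No group held 4 or more arrays, so single arrays were not screened for outlying values.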

How the results depend on the processing

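Counts of members called are given in the order of the text, and the cause of a change was not tested. For experiment 1 (10 lower), the lowest-mean probe set and the replicate block each gave 6; for experiment 2 (19), the lowest-mean probe set gave 12; for 100 µM (31), the Actb covariate gave 20. For the chamber against experiment 1 (15), quantile scaling gave 8, array weights 31, the sets compared alone 26 and the replicate block 2; against experiment 2 (0), array weights and the sets compared alone each gave 11. Between doses (17), array weights and the sets compared alone each gave 3, the Actb covariate 1 and the replicate block 11; for CoCl2 against hypoxia (13), the block gave 8. In the other comparisons the replicate block kept the counts within 1.5 times. They were 27 in the chamber, 14 in experiment 2, 24 for the hypoxia mean, and 28 and 20 at 100 and 200 µM. Against experiment 2, the chamber and experiment 1 each gave 0. Whether same-numbered arrays are paired is not given in the labels. Without experiment 1, the hypoxia mean had 30 members lower. Leaving out 1 array at a time gave 25 to 30 members in the chamber, 5 to 9 in experiment 1, 16 to 19 in experiment 2, 25 to 27 for the hypoxia mean, 24 to 31 at 100 µM, 18 to 25 at 200 µM, 6 to 14 for the chamber against experiment 1, 0 to 0 in both comparisons with experiment 2, 6 to 18 between doses and 4 to 18 for CoCl2 against hypoxia. With the lowest-mean probe set, signs turned for Polr1a (0.17 in the chamber, 0.59 at 100 µM, 0.18 at 200 µM), Bysl (0.039 at 200 µM), Bop1 (0.30 in the chamber, 0.062 for the mean, 0.64 at 100 µM, 0.35 at 200 µM, -0.29 between doses), Ftsj3 (0.027 in the chamber, 0.015 for the mean) and Polr1c (-0.088 in experiment 1, 0.43 at 100 µM, -0.075 between doses). Calls against own controls turned sign in the same way for some members given without array values. These were Gar1 (0.23 in the chamber, 0.39 at 100 µM, 0.088 at 200 µM), Imp4 (0.51 at 100 µM) and Wdr43 (0.070 at 200 µM). Signs in comparisons between sets or doses are not listed for members given without array values. With the Actb covariate, the difference between doses was -0.055 for Bop1 and -0.084 for Polr1c. The sets compared alone were not run for CoCl2 against hypoxia, which uses all arrays. Without detection calls, signal over background sets no limit that could be stated.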
